A study of Mus musculus with 6 samples.

Results

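Rab6b, Akr1e1, Gm3716 and Or2y7 were nearly switched between WT and CharmeKO cardiac fibroblasts (CFs), and Rab6a, the paralogue of Rab6b, stood beside them at almost the same level in both genotypes. They are 5 of the 49548 genes in the count table, and all 5 are among the 15789 genes tested. Rab6b, Akr1e1, Gm3716 and Or2y7 were chosen by their counts in these same libraries, as genes several fold apart between the genotypes for which no near-identical copy was known, whereas Rab6a was added for its kinship to Rab6b. The difference between genotypes therefore chose those 4 genes, and it is given for them as a description with no test. Calling them all-or-none would overstate the counts, since each gene had reads in all 6 libraries and the lower group kept between 5.0% and 7.95% of the level of the higher group.

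The libraries were made from polyadenylated RNA of native CFs, cells taken directly from the hearts of C57BL/6J mice at 5 weeks by enzymatic dissociation, red blood cell lysis and depletion of hematopoietic lineages, with 3 WT and 3 CharmeKO samples. CharmeKO mice carry a polyadenylation signal inserted into the locus of Charme, a long non-coding RNA of cardiac and skeletal muscle, and WT mice do not. The labels number the samples but do not say how many animals went into each. The study's methods give hearts from 3 WT and CharmeKO mice and do not match animals to samples. The p-values therefore measure the spread between these samples. The labels also list a growth medium, although native cells were not cultured according to the study's methods.

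The total count per library was 9595701 to 42101393 in WT and 23550718 to 31048606 in CharmeKO. Charme had 26, 15 and 4 counts in WT and 7, 0 and 0 in CharmeKO, too few to check the genotype labels (log2 fold change −2.66, adjusted p = 0.362 in edgeR's quasi-likelihood test). Summed markers of fibroblasts lay at 10700 to 13200 CPM (the count scaled to the normalized library total) in WT and at 9050 to 11700 CPM in CharmeKO. The other summed marker lists also overlapped between the genotypes, at 4110 to 5250 CPM for endothelial, 1510 to 1810 CPM for mural, 14.2 to 21.5 CPM for leukocyte, 23600 to 37900 CPM for erythroid and 23.8 to 35.9 CPM for Schwann and neuronal genes, of which Snap25 was at 0 in every library. The cardiomyocyte markers were the exception, at 118 to 122 CPM in WT and 162 to 242 CPM in CharmeKO. Of these 4, 1, Myh6, was called higher, as were 0.418% of all tested genes. Groups of 3 libraries did not overlap for 18.2% of all tested genes taken singly, so nothing is read from this exception. The part of these cell types in the differences below was not tested, and in bulk RNA fewer cells of a type and less RNA per cell cannot be told apart. Xist was above the sum of the Y-linked transcripts in WT replicate 1 and in CharmeKO replicates 1 and 2, and below it in the other 3 libraries, so each gene is also given within these classes. Each class holds only 1 library of either WT or CharmeKO, so the ratios within it have no spread.

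RAB6 proteins are small GTPases that sit on the Golgi apparatus in their GTP-bound form and recruit motor adaptors, tethers and myosins that move carriers between the Golgi, the endoplasmic reticulum and the cell surface. RAB6A is found in nearly all cells and RAB6B is best known from neurons. AKR1E1 is an aldo-keto reductase that reduces anhydrofructose, a sugar released by glycogen breakdown. Olfactory receptors are odorant sensors of the nasal epithelium, each a G protein-coupled receptor, and their family holds many pseudogenes. Gm3716 is a long non-coding RNA whose function the annotation does not give.

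Because the reading of Rab6b depends on telling it from Rab6a, the start and the end of both coding sequences are printed, with the bases that differ between the paralogues in capitals. In GENCODE release M21 both coding sequences are 624 bases long and share 489 of them (78.4%). The 135 differences fall 20 times on the opening base, 11 times on the middle base and 104 times on the closing base of a codon, and the longest run without any is 14 bases. The first 120 bases hold 20 differences. The last 120 bases, which encode the variable tail with the lipid-modified cysteines at its end, hold 31.
Rab6a, bases 1 to 120: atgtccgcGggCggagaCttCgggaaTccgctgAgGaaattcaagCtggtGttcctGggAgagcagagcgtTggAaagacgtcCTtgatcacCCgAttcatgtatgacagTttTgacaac
Rab6b, bases 1 to 120: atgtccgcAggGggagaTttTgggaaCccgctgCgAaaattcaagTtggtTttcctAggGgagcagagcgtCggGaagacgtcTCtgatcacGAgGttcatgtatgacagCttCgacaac
Rab6a, bases 505 to 624: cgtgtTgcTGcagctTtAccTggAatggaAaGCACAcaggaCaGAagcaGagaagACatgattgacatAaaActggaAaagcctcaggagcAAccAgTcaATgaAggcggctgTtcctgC
Rab6b, bases 505 to 624: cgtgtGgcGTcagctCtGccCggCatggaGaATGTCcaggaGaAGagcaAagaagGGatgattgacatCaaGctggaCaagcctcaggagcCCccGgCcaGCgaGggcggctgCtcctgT

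The promoters of the other genes that moved are set beside that of Rab6b as a description of their starts. Whether promoter content bears on the direction of a difference was not tested. Each runs from 250 bases before to 50 bases after the start in RefSeq on GRCm38.p6, which is another build than the one the counts were made on, and CG dinucleotides, which read the same on both strands, are in capitals. RefSeq promoters matched 4 of the 5 symbols, all but Or2y7.
Rab6b promoter, chr9:103111824-103112123, plus strand: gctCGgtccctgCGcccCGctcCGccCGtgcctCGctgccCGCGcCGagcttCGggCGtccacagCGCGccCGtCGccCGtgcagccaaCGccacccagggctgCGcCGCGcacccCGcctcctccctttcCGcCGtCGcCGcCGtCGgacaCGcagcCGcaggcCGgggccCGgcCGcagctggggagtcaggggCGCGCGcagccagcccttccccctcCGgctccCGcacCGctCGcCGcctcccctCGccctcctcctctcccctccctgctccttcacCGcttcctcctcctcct
Akr1e1 promoter, chr13:4609115-4609414, minus strand: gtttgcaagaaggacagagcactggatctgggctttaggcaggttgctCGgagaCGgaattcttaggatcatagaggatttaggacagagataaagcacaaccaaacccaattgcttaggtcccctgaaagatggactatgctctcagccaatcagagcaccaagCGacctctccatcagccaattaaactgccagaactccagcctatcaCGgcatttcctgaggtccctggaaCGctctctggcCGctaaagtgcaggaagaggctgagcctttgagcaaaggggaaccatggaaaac
Gm3716 promoter, chr5:64610650-64610949, minus strand: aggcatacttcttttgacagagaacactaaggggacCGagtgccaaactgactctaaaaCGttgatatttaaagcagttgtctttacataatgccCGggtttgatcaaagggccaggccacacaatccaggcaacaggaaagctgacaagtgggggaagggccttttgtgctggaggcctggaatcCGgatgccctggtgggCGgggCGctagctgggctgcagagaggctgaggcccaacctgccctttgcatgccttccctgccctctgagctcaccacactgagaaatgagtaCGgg

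The Rab6b promoter holds 42 CG dinucleotides and 78.7% G and C, and 3.03% of the 32851 promoters hold at least as many CG. The Akr1e1 and Gm3716 promoters hold 6 and 7, close to the median of 7 over all promoters, and at least as many are found in 56.4% and 52.1% of them. The Rab6a promoter holds 29, a number reached by 12.9% of promoters. The letters CCAAT, searched on both strands, occur 3 times in the Akr1e1 promoter, 2 times in that of Rab6a and 0 times in those of Rab6b and Gm3716, and 37.4% of all promoters hold them at least once. Rab6b and Akr1e1, which were both lower in CharmeKO, thus differ in the CG content of their promoters.

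Rab6b (ENSMUSG00000032549, chromosome 9, plus strand) was the gene with the highest level in WT among the 4 that moved. It was at 54.2, 60.8 and 59.9 CPM in the WT replicates 1 to 3 and at 4.82, 2.37 and 3.98 CPM in the CharmeKO replicates 1 to 3, from 2307, 1598 and 557 counts and from 138, 58 and 121 counts. The lowest WT library was 11.3 times the highest CharmeKO library. The group means were 58.3 ± 3.56 CPM for WT and 3.72 ± 1.24 CPM for CharmeKO (SD, n = 3 each), a log2 fold change of −3.96, so that 6.39% of the WT level was left. The log2 ratio of CharmeKO to WT was −3.91 among the Xist-high libraries and −3.92 among the Xist-low libraries. None of the 4958 windows of 50 bases in its longest transcript is found in another annotated gene.

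Akr1e1 (ENSMUSG00000045410, chromosome 13, minus strand) was lower in CharmeKO by a like factor from a lower level. It was at 10.2, 8.75 and 9.25 CPM across WT and at 0.454, 0.695 and 0.855 CPM in CharmeKO, from 434, 230 and 86 counts and from 13, 17 and 26 counts. The groups stood apart by a factor of 10.2 between their nearest libraries. The means were 9.4 ± 0.738 CPM (SD, n = 3) and 0.668 ± 0.202 CPM (SD, n = 3), a log2 fold change of −3.80. The log2 ratio was −4.15 among the Xist-high libraries and −3.40 among the Xist-low ones. Of the 3414 windows of 50 bases in its longest transcript 6 are shared, all with Cxcr2, a chemokine receptor gene that had 10 counts in WT replicate 1 and 0 in each of the other 5 libraries.

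Gm3716 (ENSMUSG00000105402, chromosome 5, minus strand, annotated as a long intergenic RNA) moved the other way and by the widest factor of the 4. It was at 0.447, 0.266 and 0.538 CPM across WT and at 7.27, 9.74 and 8.03 CPM in CharmeKO, from 19, 7 and 5 counts and from 208, 238 and 244 counts. Its nearest libraries were 13.5 times apart. The means were 0.417 ± 0.138 CPM (SD, n = 3) and 8.34 ± 1.27 CPM (SD, n = 3), a log2 fold change of 4.37. The log2 ratio was 4.25 among the Xist-high and 4.32 among the Xist-low libraries. None of the 2830 windows in its longest transcript occurs in another annotated gene.

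Or2y7 (ENSMUSG00000108218, chromosome 11, minus strand) reached the highest level of the 4 in CharmeKO. It was at 5.43, 7.76 and 6.45 CPM across WT and at 80.9, 93.8 and 72.3 CPM in CharmeKO, from 231, 204 and 60 counts and from 2316, 2294 and 2198 counts. Every CharmeKO library was at least 9.32 times every WT library. The means were 6.55 ± 1.17 CPM (SD, n = 3) and 82.3 ± 10.8 CPM (SD, n = 3), a log2 fold change of 3.66, and the log2 ratio was 4.01 among the Xist-high and 3.35 among the Xist-low libraries. In GENCODE M21 this identifier is a transcribed, unprocessed olfactory receptor pseudogene named Olfr1372-ps1, with a transcript of 9812 bases, so its reads do not by themselves speak of a receptor protein. Of the 9763 windows in this transcript 916 (9.38%) occur in 612 other genes. Those it shares the most windows with, Or2y13 (396), Or2y14 (161) and Cd209c (126), had 0 counts in all 6 libraries.

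Rab6a (ENSMUSG00000030704, chromosome 7, plus strand) had close levels in both genotypes. It was at 163, 142 and 151 CPM across WT and at 147, 141 and 149 CPM in CharmeKO, and the groups overlap. The means were 152.0 ± 10.8 CPM (SD, n = 3) and 146.0 ± 4.19 CPM (SD, n = 3). Rab6a was not chosen for its values and was therefore tested, with a log2 fold change of −0.06 (standard error 0.11, 95% interval −0.30 to 0.18, adjusted p = 0.867 in edgeR's quasi-likelihood test over all genes). The interval spans 0.809 to 1.14 times the WT level, and differences within it could not be told from none. The log2 ratio was −0.18 among the Xist-high (1 WT, 2 CharmeKO) and 0.03 among the Xist-low libraries (2 WT, 1 CharmeKO). Both lie within the 95% interval, so nothing is read from their differing signs. Mrpl48, a mitochondrial ribosome gene on the opposite strand, overlaps Rab6a and shares 659 of the 3165 windows of 50 bases in its longest transcript, while another 46 are shared with Gm13082, which had at most 3 counts in any library. Reads were counted by strand, and Mrpl48 itself had a log2 fold change of 0.10 (adjusted p = 0.818 in edgeR).

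**Figure D1:**
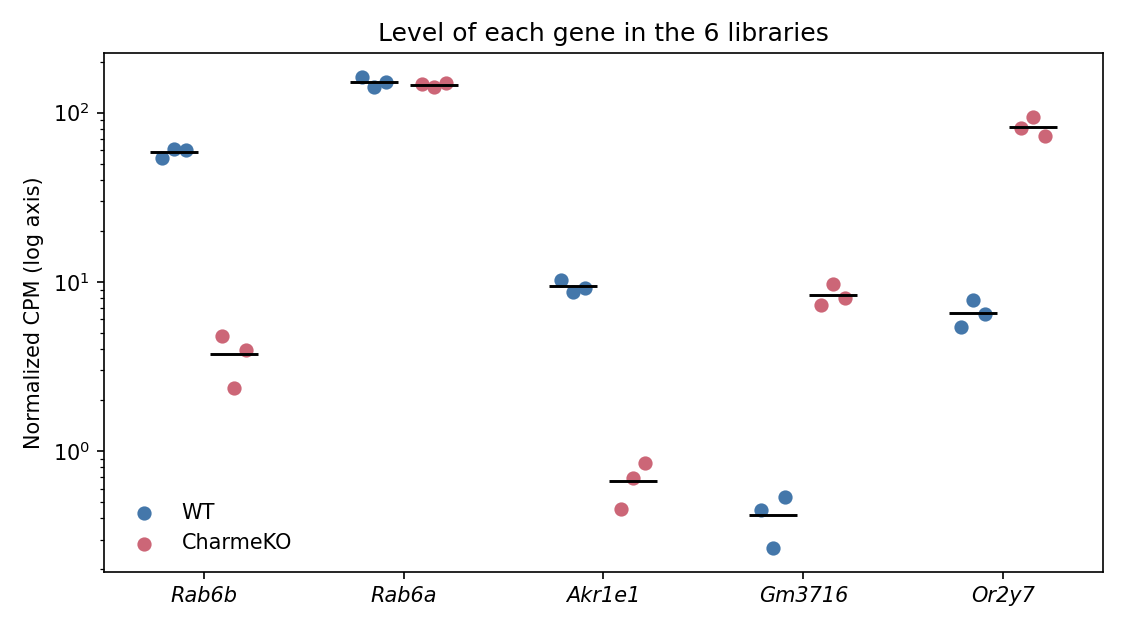
Normalized CPM on a log axis for each of the 5 genes, with a point per library (WT left, CharmeKO right) and a bar at the group mean. The Rab6b and Akr1e1 points of CharmeKO sit far below those of WT, those of Gm3716 and Or2y7 far above, and those of Rab6a overlap.

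Per kilobase of exon, WT levels ran from Rab6a (40.8 CPM per kb) through Rab6b (11.6), Akr1e1 (2.58) and Or2y7 (0.667) to Gm3716 (0.133). In CharmeKO the order was Rab6a (39.1 CPM per kb), Or2y7 (8.39), Gm3716 (2.66), Rab6b (0.74) and Akr1e1 (0.184). No neighbours in either order overlapped, so every library of a genotype had the same order. The libraries of a group varied more where the gene was low, with coefficients of variation of 6.1% in WT and 33.4% in CharmeKO for Rab6b, 7.85% and 30.2% for Akr1e1, and 33.1% and 15.2% for Gm3716. Or2y7 varied by 17.8% in WT and 13.2% in CharmeKO.

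Counting reads of the Rab6 pair within each library removes the scaling between libraries from the comparison. Rab6b made up 24.9% (95% Wilson interval 24.1% to 25.8%), 30.0% (28.8% to 31.3%) and 28.4% (26.5% to 30.4%) of the Rab6a and Rab6b counts in WT, intervals that cover counting error only. In CharmeKO its share was 3.18% (2.7% to 3.75%), 1.65% (1.28% to 2.13%) and 2.59% (2.18% to 3.09%). The mean share was 27.8% ± 2.61 for WT and 2.47% ± 0.772 for CharmeKO (SD, n = 3 each), and 22.2% ± 2.25 and 1.85% ± 0.58 once counts were divided by exon length. The summed level of the pair was 52.4 ± 2.25 CPM per kb in WT and 39.9 ± 1.31 CPM per kb in CharmeKO (SD, n = 3 each). The sum was lower in every CharmeKO library than in every WT library. Since Rab6b was chosen for its difference, no test is given.

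**Figure D2:**
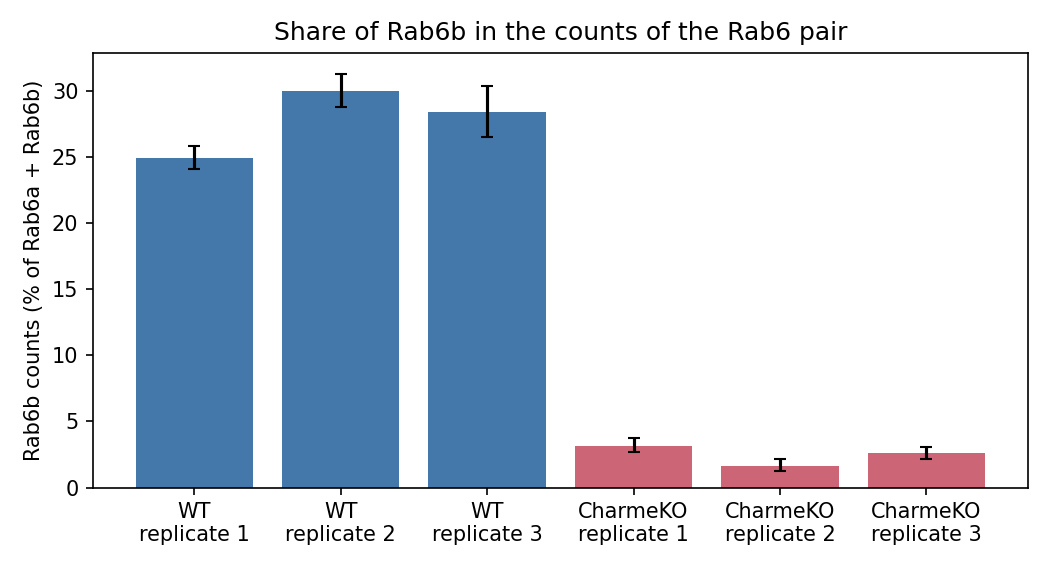
Share of Rab6b in the summed Rab6a and Rab6b counts (%) for each library, with bars from 0 and 95% Wilson intervals. The WT bars lie between 24.9% and 30.0%, and the CharmeKO bars between 1.65% and 3.18%.

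Against the whole table, the 4 genes combined a wide difference with a mean level above that of most genes with differences of like size. Of the 15789 genes tested 131 (0.83%) were called differentially expressed genes (DEGs), 66 higher (0.418%) and 65 lower (0.412%) in CharmeKO. The groups of 3 libraries did not overlap for the 4 genes, nor for 18.2% of all tested genes, 8.59% with CharmeKO lower and 9.57% with CharmeKO higher, and nothing is read from this since the difference was the reason for picking the 4. An absolute log2 fold change at least as large as that of Or2y7 was found for 57 genes (0.361%), of which 30 (0.19%) were DEGs, and by its size Gm3716 ranked 36, Rab6b 49, Akr1e1 53 and Or2y7 57. Among genes whose lower group was not at 0 in all libraries, a ratio between the nearest libraries of the groups at least as large as that of Or2y7 was found for 24 genes (0.152%). The 57 genes had a median mean level of 0.926 CPM. Among them Or2y7 (44.4 CPM) and Rab6b (31.0 CPM) had the highest mean levels, with Akr1e1 (5.04 CPM) and Gm3716 (4.38 CPM) at ranks 10 and 11. The set of 57 is cut at the fold of Or2y7, and the 4 were picked from these same counts. The ranks therefore describe the choice and are no result about the 4.

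The genes next to the 4 in size of difference were all less abundant. Rab6b stood between Rpl13-ps1 (−4.03 on the log2 scale) and Ccdc96 (3.94), Akr1e1 between Gm5436 (3.92) and Fam43b (3.77), and Gm3716 between Sox6os (4.43) and Znf41-ps (−4.37). Or2y7 stood between Nudc-ps1 (3.67) and Lrp2 (−3.56), the latter just outside the fold of the 4. The mean levels of these 8 genes were 0.226 to 1.78 CPM, which again describes how the 4 were picked.

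**Figure D3:**
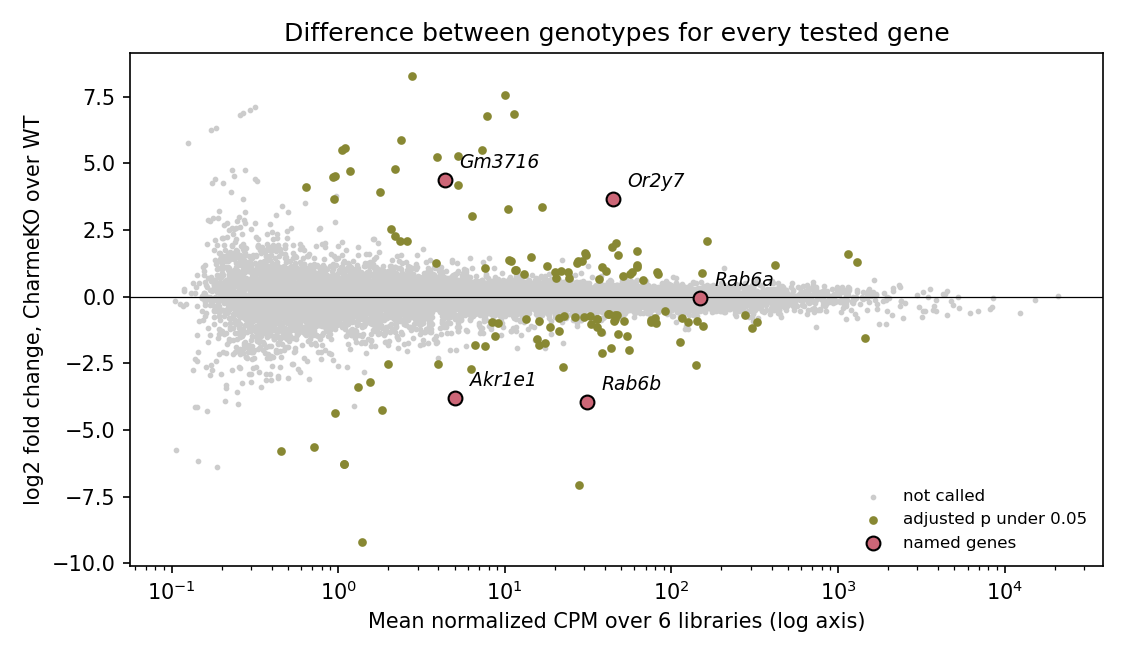
Log2 fold change of CharmeKO over WT against mean normalized CPM (log axis) for every tested gene, with DEGs coloured and the 5 genes named. Rab6b and Or2y7 lie at mean levels of 31.0 and 44.4 CPM, where few genes differ as widely, and Rab6a lies on the line of no difference.

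The other Rab GTPases, which direct membrane traffic at each compartment of the cell and are the family of both Rab6 genes, were examined as a list. Of these, 57 are in the table and 49 were tested. The edgeR test called 0 of them against 0.83% of all genes, with 3 at an unadjusted p under 0.05 (12.8% of all genes). At the 0.83% share of edgeR fewer than 1 of the 49 would be called. DESeq2 called 0 of them, and called 394 genes in all where edgeR called 131. Their median log2 fold change was −0.005, against 0.01 over all tested genes, and their values ran from −0.91 (Rab4b) to 1.02 (Rab27b). The most abundant were Rab7 of late endosomes at 276.0 ± 8.9 CPM for WT and 288.0 ± 13.6 CPM in CharmeKO (SD, n = 3 each), Rab5c of early endosomes at 230.0 and 227.0 CPM, and Rab1b of early Golgi traffic at 167 and 159 CPM (log2 fold changes 0.06, −0.02 and −0.08, standard errors 0.11 to 0.12). Rab28, Rab11a and Rab3d were the ones with an unadjusted p under 0.05, at log2 fold changes of 0.38, 0.29 and 0.34 (adjusted p = 0.202, 0.325 and 0.332 in edgeR). Rab6b, chosen for its difference, was at −3.96.

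**Figure D4:**
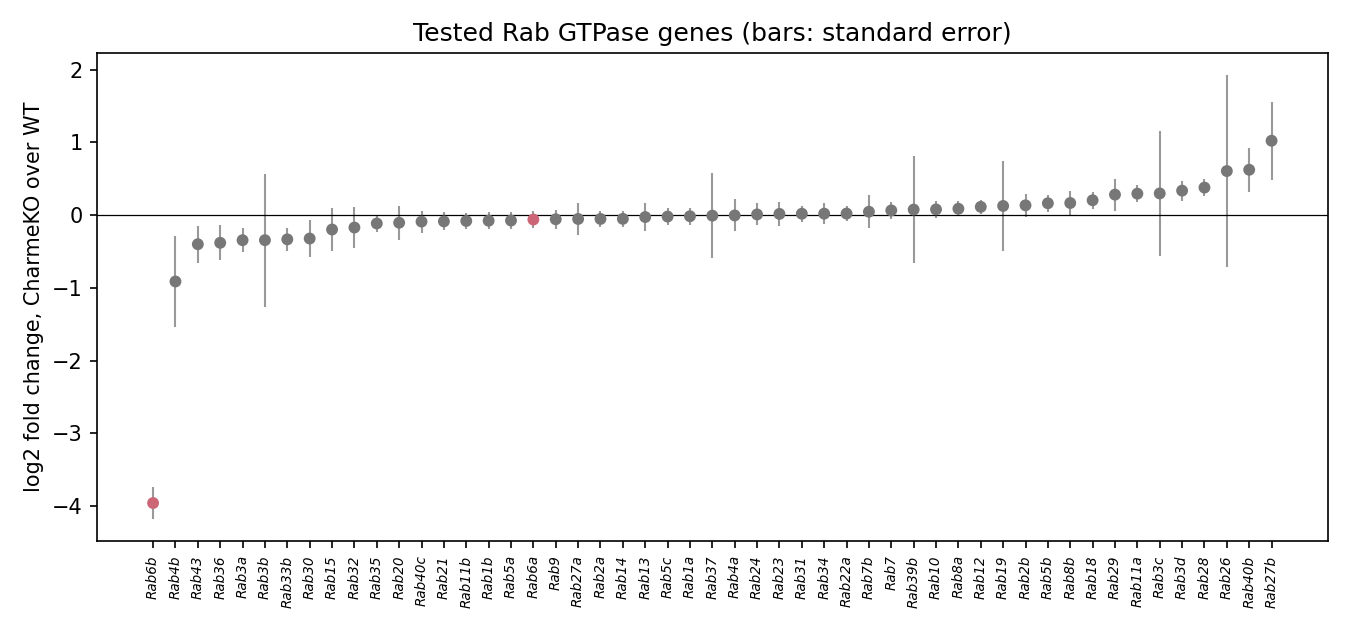
Log2 fold change of CharmeKO over WT for Rab6a, Rab6b and the 49 other tested Rab genes in order of value, with standard errors. The other Rab genes lie between −0.91 and 1.02, and Rab6b lies at −3.96.

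RAB6 acts through adaptors, tethers and motors, and a list of the genes of these partners was examined. Of these, 30 are in the table, 28 were tested and 0 were called by edgeR (0.83% of all genes) or DESeq2, with 4 at an unadjusted p under 0.05 (12.8% of all genes), so that both counts are near the shares over all genes, and a median log2 fold change of −0.015. Myh9, a non-muscle myosin heavy chain that works at Golgi fission sites, was at 937 ± 154 CPM for WT and 827 ± 84.4 CPM in CharmeKO (SD, n = 3 each). Dennd5a, which binds RAB6, was at 408 and 444 CPM and the kinesin gene Kif1c at 348 and 342 CPM (log2 fold changes −0.18, 0.12 and −0.02 for these genes, standard errors 0.12 to 0.15). The 4 were Gorab at 0.72, Mical3 at −0.26, Ocrl at −0.30 and the mitotic kinesin gene Kif20a at −1.35, whose WT libraries spread widely (10.3 ± 8.37 CPM, SD, n = 3).

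Around Akr1e1, 16 other aldo-keto reductase genes are in the table, and 8 were tested. In edgeR 0 were called (0.83% of all genes), with 2 at an unadjusted p under 0.05 (12.8% of all genes). So few genes give about 0 calls at the 0.83% share. DESeq2 called 0 of the 8 and 394 genes in all. Of the 8, 7 had a higher and 1 a lower value in CharmeKO, with a median log2 fold change of 0.176. Akr1a1, an aldehyde reductase, was at 233 and 238 CPM in WT and CharmeKO, and Akr1b1, the aldose reductase of the polyol pathway, at 49.0 and 52.4 CPM (log2 fold changes 0.03 and 0.10, standard errors 0.12 and 0.13). The 2 were Akr1c14, a hydroxysteroid dehydrogenase, at 23.3 ± 5.88 and 35.4 ± 4.23 CPM (log2 fold change 0.60, adjusted p = 0.202 in edgeR), and Akr7a5 at 17.0 ± 1.74 and 22.6 ± 0.171 CPM (0.40, adjusted p = 0.241). Glycogen genes gave 0 calls among 26 tested of 28, in edgeR (0.83% of all genes) and in DESeq2 (394 genes in all). In edgeR, 2 were at an unadjusted p under 0.05 against 12.8% of all genes (Pygl and Pgm2l1, log2 fold changes 0.55 and 0.29). The median of the glycogen genes was 0.003. The lysosomal glucosidase gene Gaa was at 113 and 101 CPM, Ugp2, which makes UDP-glucose, at 101 and 90.8 CPM, and the phosphorylase gene Pygb at 77.7 and 86.6 CPM (log2 fold changes −0.17, −0.16 and 0.16, standard errors 0.14, 0.19 and 0.10).

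Among 1152 olfactory receptor genes other than Or2y7, 55 had a count in any library and 10 were tested, of which 1 was called, lower in CharmeKO (0.412% of all tested genes). This was Or2v2, also on chromosome 11, and it moved the opposite way from Or2y7. It was at 4.47, 3.54 and 2.37 CPM across WT and at 0.279, 0.245 and 0.0329 CPM in CharmeKO, from 190, 93 and 22 counts and from 8, 6 and 1 counts, and the groups do not overlap. Or2v2 passed the filter through WT alone, and was not tested with the filter of 10 counts in 5 libraries. Its log2 fold change was −4.23 (standard error 0.59, adjusted p = 0.00448 in edgeR), and without WT replicate 1 the adjusted p was 0.0482. Or2v1, a related receptor gene on chromosome 11, was at 1.74, 2.93 and 2.9 CPM across WT and at 0.0699, 0.409 and 0.559 CPM in CharmeKO, a log2 fold change of −2.83 that missed the threshold (standard error 0.62, adjusted p = 0.0708 in edgeR), though DESeq2 called it (adjusted p = 0.000297). These transcripts share 12 of the 4188 Or2v2 windows of 50 bases, and Or2v1 shares 64 windows with Ifi47, an interferon-inducible GTPase gene.

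Of the genes that carry an olfactory receptor to the membrane or transmit its signal, 13 are in the table and 7 were tested, too few for a call at the share of all genes (0.83%). There were 0 calls in edgeR and in DESeq2 (394 genes in all). In edgeR, 2 genes were at an unadjusted p under 0.05 (12.8% of all genes), and the median log2 fold change was −0.009. Gnb1, a G protein beta subunit used in every tissue, was at 383 ± 3.14 CPM for WT and 486 ± 22.4 CPM in CharmeKO (log2 fold change 0.35, adjusted p = 0.25 in edgeR). Gnal, the olfactory G protein alpha subunit, was at 1.53 ± 0.561 and 0.679 ± 0.168 CPM (−1.12, adjusted p = 0.39), while its chaperone gene Ric8b and the cyclase gene Adcy3 had log2 fold changes of −0.01 and −0.15.

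Gm3716 belongs to the genes that carry a provisional Gm number, a mixed group of non-coding RNAs, pseudogenes and unnamed genes. Of 18688 others 1176 were tested and 19 (1.62%) were called, 15 higher and 4 lower, where 0.83% of all tested genes were called. Several of the 19, such as Gm8210 and Gm21451, reached 10 counts only in the group where they were high. They thus passed the filter through that group, and nothing is read from the 2 shares. With the filter of 10 counts in 5 libraries 6 were called, 5 higher and 1 lower. Values were higher in CharmeKO for 588 and lower for 588. The higher calls with wider differences than Gm3716 were Gm8210 (7.56), Gm8741 (6.79), Gm5801 (5.88), Gm4735 (5.52), Gm13841 (5.30) and Gm5913 (4.52), each with fewer than 1 CPM on average in WT. Gm12663 (4.13), Gm5436, Gm28438, Gm28437, Gm29216, Gm13340, Gm28661, Gm28439 and Gm2830 (0.99) followed. Of the 4 lower calls, Gm42047 had a log2 fold change of −2.65, Gm5561 and Gm4779 had at most 2 counts in any CharmeKO library, and Gm21451 had 107, 65 and 31 counts in WT and 0 in all 3 CharmeKO libraries.

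Few genes beside the 5 on their chromosomes could be tested, and 1 was called. Of the 5 annotated genes on either side of each of the 5 genes, 50 in all, 24 had a count and 12 were tested, with 0 called higher and 1 lower (0.83% of all tested genes were called). Many neighbours had no count in any library, namely 5 of 10 around Rab6b, 5 around Akr1e1, 9 around Gm3716, 5 around Or2y7 and 2 around Rab6a. Several of these are annotated as rRNA, snoRNA or miRNA, and the libraries were made from polyadenylated RNA. A count of 0 therefore does not show that a neighbour is silent. The neighbours of Or2y7 include the olfactory receptor genes Olfr1373 and Olfr1371, both at 0 counts, and Skp1, a ubiquitin ligase subunit, at 58.6 ± 9.19 and 64.0 ± 4.48 CPM in WT and CharmeKO (SD, n = 3 each). The abundant neighbours Ppp2ca, a phosphatase subunit gene among those around Or2y7, and Fam168a among those around Rab6a had log2 fold changes of 0.07 and 0.00. Gm37166, which overlaps Rab6b on its strand, had 9, 4 and 4 counts in WT and 0 in CharmeKO. These were too few for the test, and whether they come from Rab6b RNA was not tested.

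The lower neighbour was Slco2a1, a prostaglandin transporter gene beside Rab6b. It was at 45.8, 58.4 and 33.6 CPM across WT and at 25.8, 25.5 and 25.6 CPM in CharmeKO, with no overlap. Its log2 fold change was −0.85 (standard error 0.17, adjusted p = 0.0492 in edgeR), and the call was lost without WT replicate 1 (adjusted p = 0.131) or without CharmeKO replicate 1 (0.222), 2 (0.234) or 3 (0.0986), and with a term for the Xist classes (0.0968). On the other side of Rab6b the nearest tested gene, Srprb of the signal recognition particle receptor, had a log2 fold change of 0.02 (adjusted p = 0.97).

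When the 5 nearest tested genes on either side were taken instead, a choice made after the values were seen, 1 of 50 was called higher (0.418% of all tested genes) and 2 lower (0.412%), with a median log2 fold change of 0.04. Both added calls lie near Gm3716. Rell1, a relative of the TNF receptor RELT, was at 101, 99.3 and 105 CPM across WT and at 53.7, 53.2 and 67.5 CPM in CharmeKO (log2 fold change −0.81, standard error 0.12, adjusted p = 0.00773 in edgeR), and was not called without CharmeKO replicate 1 (0.0778) or 2 (0.0636). Tlr6, a Toll-like receptor gene, was at 0.964, 0.647 and 0.538 CPM across WT and at 3.77, 4.54 and 2.76 CPM in CharmeKO (log2 fold change 2.29, standard error 0.38, adjusted p = 0.0162), and was not called without WT replicate 3 (0.0645) or CharmeKO replicate 1 (0.107) or 2 (0.116). It shares 454 of its 3628 windows of 50 bases with Tlr1, whose log2 fold change was 1.04 (adjusted p = 0.612 in edgeR). The annotated genes right beside Gm3716 had no count, and the nearest tested genes, Tbc1d1 and Gm20033, had log2 fold changes of −0.03 and −0.49 (adjusted p = 0.948 and 0.776).

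Around Akr1e1 the nearest tested genes were Akr1c19, another reductase, at a log2 fold change of 0.31 (adjusted p = 0.745 in edgeR) and the transcription factor gene Klf6 at 0.02 (0.958), and the lowest adjusted p of the 10 was 0.202. Around Or2y7 the 10 had adjusted p-values of 0.54 or more, and around Rab6a of 0.169 or more.

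**Figure D5:**
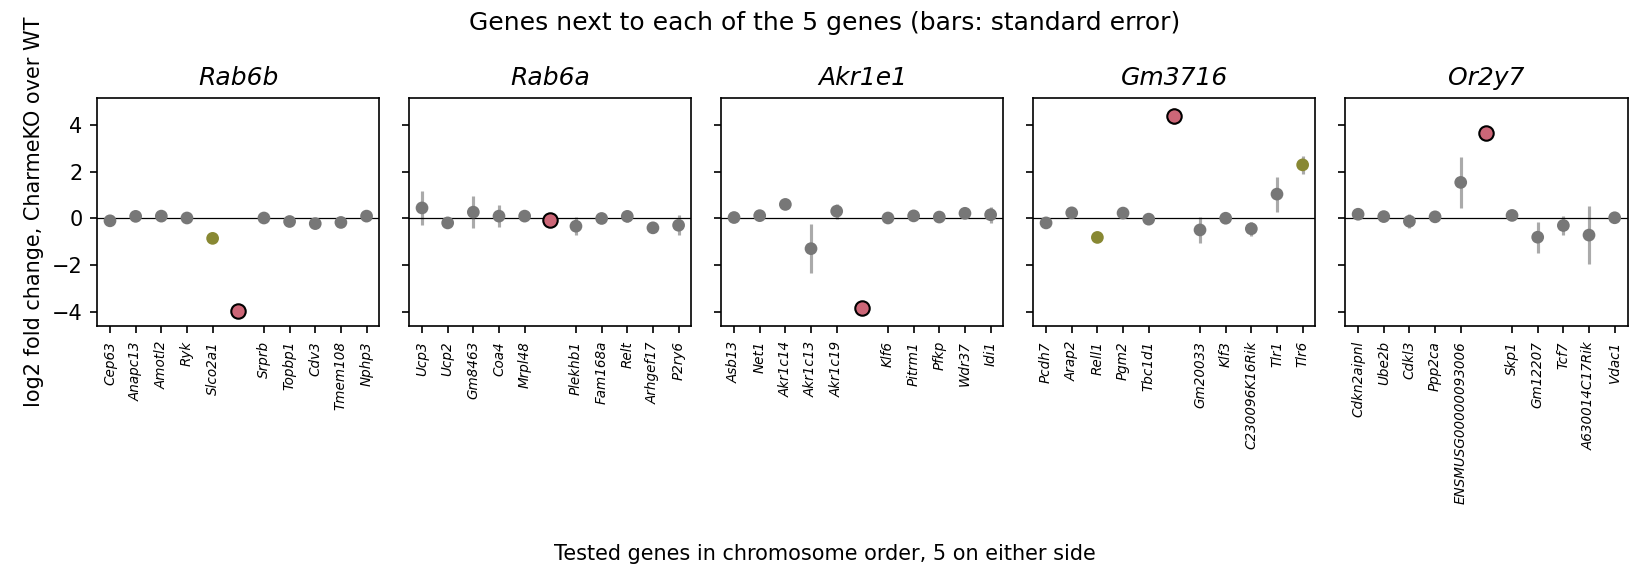
Log2 fold change of CharmeKO over WT, with standard errors, for the 5 tested genes on either side of each of the 5 genes in chromosome order, with the gene itself ringed. Of the neighbours Slco2a1, Rell1 and Tlr6 are coloured as called.

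Over the 6 libraries, Rab6b and Akr1e1 varied together in log2(CPM + 1) (Pearson r = 0.982), as did Gm3716 and Or2y7 (r = 0.991), while Rab6a had r between −0.497 and 0.456 with the 4. These correlations describe the genotype difference that chose the genes, since the 6 points fall into the 2 genotypes. The tested genes most like Rab6b were 9930111J21Rik2 (r = 0.998), Tnfrsf1b (0.996) and Adamts6 (0.995), and those most like Akr1e1 were Cxcl10 (0.997), Rpl29 (0.996) and Fam167b (0.992). Gm3716 was most like Gm4735 (r = 0.998), Rbpj-ps3 (0.997) and Gm8210 (0.997), and Or2y7 most like H4c18 (0.997), Gm8210 (0.996) and Mrpl27 (0.993). Rab6a, which did not split by genotype, was most like Gm37653 (r = 0.987), Rmrp (0.983) and Gnai3 (0.982). The log2 fold changes of these genes ran from that of 9930111J21Rik2 (−7.05) to that of Gm8210 (7.56).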

How the data were processed

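The RNA of 6 libraries of native CFs, 3 WT and 3 CharmeKO, was measured by directional poly(A) RNA-sequencing. The authors filtered Illumina reads at Q30, aligned them with STAR to GRCm39 and counted the reverse-strand reads per gene on an Ensembl annotation with Charme added. The deposited values are raw counts with no normalization, and the submitters' processing notes also name DESeq2 and GRCh38. Every library was used.

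A gene was tested where 2 or more libraries had 10 or more counts, with edgeR 4.0.16 in R 4.3.3 (TMM normalization, quasi-likelihood test, Benjamini-Hochberg adjusted p-values, threshold 0.05), and levels are normalized CPM. The common biological coefficient of variation was 20.2%. The test was checked on simulated data. A count of 3, the limit that a count of 0 allows, are 0.0705 to 0.323 CPM. DESeq2 1.42.0, other filters and normalizations, a replicate block and each library left out were the alternatives, and the term for the Xist classes and the nearest tested genes were added after the data were seen. Gene order, exon lengths and shared 50-base windows (of the longest transcript) come from GENCODE M21 on GRCm38, another build, so no gene coordinates are given beside the promoters.

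The genes and lists were chosen with earlier results of these data known. The text names the 5 genes, called list genes, the 3 most abundant tested genes of most lists, nearest tested neighbours, genes closest in fold change, and the 3 genes with the most similar pattern. List genes with an unadjusted p under 0.05, the range ends Rab4b and Rab27b, Or2v1, Rell1, Tlr6, Tlr1, Gm37166 and the olfactory receptor neighbours without a count were named after their values were seen. Same-numbered WT and CharmeKO libraries deviated together only weakly (r = 0.216, 0.053 and 0.161), and the main test did not take the numbers as pairs. Each library still correlated best with its own number, and the replicate block gave 302 DEGs in place of 131. Whether the numbers mark pairs is therefore not settled. No library was a duplicate of another.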

Additional observations from a re-analysis of the deposited data

How the results depend on the processing

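The log2 fold changes of Rab6b, Rab6a, Akr1e1, Gm3716 and Or2y7 kept their sign and moved by less than the spread between replicates under every alternative run, and with each library left out they lay at −4.18 to −3.72, −0.11 to −0.0031, −4.04 to −3.58, 4.13 to 4.55 and 3.51 to 3.83. Gm3716 was not tested with a filter of 10 counts in 5 libraries. The share of Rab6b in the pair lay at 26.6% to 29.2% in WT and 2.12% to 2.88% in CharmeKO with a library left out, and at 22.2% in WT per length. The count of DEGs, 66 higher and 65 lower, was 394 with DESeq2 (154 higher, 240 lower), 699 with no filter beyond 1 count (253 and 446), 302 with the replicate block (115 and 187), and 61 (without CharmeKO replicate 1) to 349 (without WT replicate 2) with a library left out. It was 71 without WT replicate 1 and 67 without WT replicate 3 or CharmeKO replicate 2. Calls among Rab genes were 0 to 1 and among RAB6 partners 0 to 2 with a library left out, the higher count without WT replicate 2 in both, and with no filter 1 partner and 1 aldo-keto reductase gene were called. Olfactory receptors had 2 calls with DESeq2, no filter or the replicate block and 0 with the filter of 5 libraries. Predicted genes had 30 with DESeq2, 36 with no filter, 6 with the filter of 5 libraries and 12 to 20 with a library left out, with 12 without WT replicate 1, WT replicate 3 or CharmeKO replicate 1. The annotated neighbours had 0 with the filter of 5 libraries, 0 to 1 with a library left out, and 3 with the nearest tested genes. Of Rab6a, Or2v2, Or2v1, Slco2a1, Rell1 and Tlr6, the replicate block changed the call of Or2v1 alone (adjusted p = 0.0252 in edgeR), the predicted genes had 21 calls with it, and each of the 6 libraries correlated best with its own number. The cause of these changes was not tested. Depth limits the low groups of Akr1e1 and Gm3716, which rest on 5 to 26 counts per library.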
